A study of Mus musculus with 28 samples.

Results

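The 10 genes described here mark macrophages of the nerve, the phagocytes that live among its axons, Schwann cells, vessels and sheaths. They were picked by name as known markers, with earlier results of these data known, from 41605 gene identifiers counted in bulk RNA sequencing of mouse peripheral nerve. The members are Ptprc, Adgre1, Csf1r, Cd68 and Aif1, which are shared by most macrophages, Cx3cr1 and Trem2, which are prominent in resident and microglia-like macrophages, and Mrc1, Lyve1 and Cd163, which are scavenger and matrix receptors of macrophages in perivascular and connective tissue. All 10 passed the filter on low counts, which kept 17700 genes. The study followed the nerve through 7 stages with 4 libraries at each, labelled as embryonic days (E) 13 and 17 and postnatal days (P) 1, 5, 14, 24 and 60 (both embryonic labels leave off a fraction of a day that the study's methods give), in wild-type C57BL/6J mice that were not perfused, so blood remained in the tissue. Each E13 library pooled various peripheral nerves of a pair of embryos, for which no removal of outer layers is described, each E17 library pooled the sciatic nerves of a pair of embryos, and each postnatal library came from the sciatic nerves of 1 mouse. From E17 on, the outer layers (epineurium and perineurium) had been stripped off by hand as far as possible. Age and dissection therefore changed together between E13 and E17 and cannot be told apart there, and in bulk tissue fewer macrophages and less RNA per macrophage cannot be told apart at any stage.

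Macrophages of the nerve enter from yolk sac and blood-borne precursors, and in the adult they occupy the endoneurium, among the fibres, and the epineurium, around them. Their survival depends on the receptor encoded by Csf1r, which has 2 ligands, Csf1 and Il34. Cx3cr1 is the receptor of the membrane-bound chemokine Cx3cl1, and Trem2 senses lipids and signals through the adaptor Tyrobp. Mrc1 binds mannosylated glycoproteins, Lyve1 binds hyaluronan and is also made by lymphatic endothelium, and Cd163 takes up haemoglobin bound to haptoglobin (Hp). The comparison of adjacent stages asks at which step of nerve maturation each of these transcripts changed, and P60 against P1 asks how the adult nerve differed from the newborn one.

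Promoter windows from RefSeq (GRCm38.p6, 250 bases before to 50 after an annotated start) were available for 7 of the 10 genes, in 8 windows. The windows of Cd163 and Cx3cr1 are shown because these genes moved furthest in opposite directions after birth, and those of Mrc1 and Cd68 as examples that hold the motif searched. Capitals mark GAGGAA or its reverse complement TTCCTC, a string that holds the core letters GGAA bound by Spi1 (PU.1), the transcription factor that macrophages need. Other strings with that core were not searched. The 4 windows read 5′ to 3′ on the strand of the gene.
Cd163, chr6:124304401-124304700, plus strand: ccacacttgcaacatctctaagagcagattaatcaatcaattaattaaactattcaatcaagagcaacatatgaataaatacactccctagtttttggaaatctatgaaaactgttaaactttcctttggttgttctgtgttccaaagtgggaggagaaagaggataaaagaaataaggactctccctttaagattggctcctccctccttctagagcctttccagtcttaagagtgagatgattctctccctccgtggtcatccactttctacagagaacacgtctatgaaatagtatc
Cx3cr1, chr9:120068247-120068546, minus strand: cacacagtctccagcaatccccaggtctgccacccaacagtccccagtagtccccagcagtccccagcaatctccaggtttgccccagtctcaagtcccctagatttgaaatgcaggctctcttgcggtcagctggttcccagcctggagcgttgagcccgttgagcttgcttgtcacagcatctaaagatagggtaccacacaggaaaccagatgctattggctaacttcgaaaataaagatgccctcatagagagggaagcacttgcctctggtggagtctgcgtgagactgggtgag
Mrc1, chr2:14229164-14229463, plus strand: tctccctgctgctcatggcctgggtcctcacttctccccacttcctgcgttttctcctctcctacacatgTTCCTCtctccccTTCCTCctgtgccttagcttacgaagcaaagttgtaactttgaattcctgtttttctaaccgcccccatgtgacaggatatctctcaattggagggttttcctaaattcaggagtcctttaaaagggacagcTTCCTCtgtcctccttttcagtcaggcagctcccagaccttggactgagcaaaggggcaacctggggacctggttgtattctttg
Cd68, chr11:69666121-69666420, minus strand: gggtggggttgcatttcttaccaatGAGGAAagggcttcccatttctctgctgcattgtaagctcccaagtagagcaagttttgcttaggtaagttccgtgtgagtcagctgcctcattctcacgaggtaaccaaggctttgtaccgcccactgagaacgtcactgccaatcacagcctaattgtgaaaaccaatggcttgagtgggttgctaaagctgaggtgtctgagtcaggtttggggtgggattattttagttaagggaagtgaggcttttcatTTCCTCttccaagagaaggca
At least 1 match stood in 5 of the 8 windows of the macrophage genes, against 28.3% of 32851 windows of the same length over all genes. The Mrc1 window held 3 matches and the Cd68 window 2. The windows of Cd163 and Cx3cr1 held no match to the searched string, though both hold the shorter GGAA.

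Values are CPM (read counts scaled to a common library total, with TMM factors), given for replicates 1 to 4 in that order or as mean ± SD (n = 4 libraries). Changes are log2 fold changes ± SE from the edgeR quasi-likelihood fit of all 28 libraries, with p adjusted over all 17700 genes, and a gene was called at an adjusted p under 0.05 with a fold change of at least 2. Total counts ran from 13899895 to 37662780 per library. Of the 28 libraries, 3 stood apart in how their values depended on the GC content of the genes. The slope against GC content was -0.932 on the log2 scale per 10 percentage points in E13 replicate 1, 0.727 in E13 replicate 4 and -0.427 in P1 replicate 1, and -0.161 to 0.198 in the others. The calls of the 10 genes and of the listed genes were also made without the E13 libraries of this kind, both left out together, or without P1 replicate 1, an alternative chosen after seeing the data, and the counts and calls printed here that changed are given beside the results. The E13 nerves also held the most blood RNA, with a summed level of the 8 erythroid genes of 4334 to 26780 CPM at E13, 365 to 1010 CPM at E17 and 23.2 to 49.3 CPM at P60.

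The macrophage genes followed 3 courses along the timeline. Adgre1, Csf1r, Cd68 and Aif1 were high at E13, low at E17 and P1, with higher means again at P5, and had no called change after that. Among them Adgre1, Cd68 and Aif1 passed the adjusted p as lower between P5 and P14 (-0.63, -0.60 and -0.58), under the 2-fold minimum. Cd68 went down to 6.98 CPM at P14 and back to 10.3 CPM at P24 (0.57 ± 0.21, adjusted p = 0.14, libraries without overlap). Cx3cr1 and Trem2 shared the rise of the means at P5 and then went down, Cx3cr1 to its lowest level at P60. Mrc1, Lyve1 and Cd163 were called higher at P5 and at P60 than at P1. Mrc1 stayed near its P5 level from there on, like Csf1r. The means of Lyve1 and Cd163 went on up to P60, and Cd163 went from a few reads per library at E17 to one of the most abundant of the 10 genes at P60. The test of all stages together called 9 of the 10 genes changed, with stage means at least 1 apart on the log2 scale, where 70.0% of all genes tested were called. Ptprc was the exception, with an adjusted p of 0.038 and a range of 0.85 on the log2 scale.

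**Figure D1:**
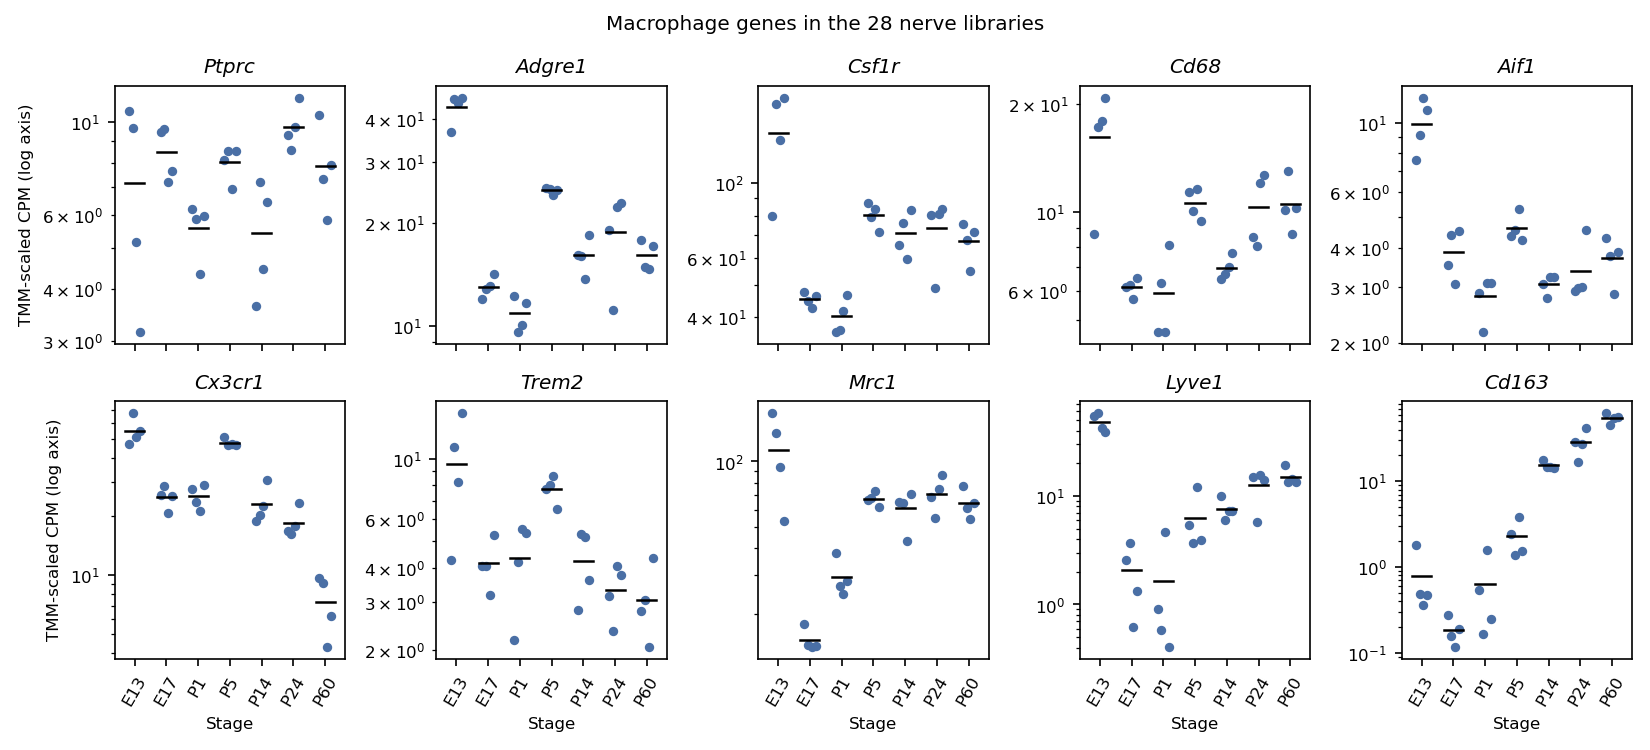
The vertical log axes give TMM-scaled CPM of each macrophage gene and the horizontal axes the 7 stages, with 1 point per library (4 per stage) and a bar at the stage mean. Cd163 rose from 0.116 to 0.275 CPM at E17 to 45.4 to 62.2 CPM at P60, while Cx3cr1 went from 46.1 to 50.9 CPM at P5 to 4.29 to 9.72 CPM at P60.

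Between E13 and E17, 9 of the 10 macrophage genes were called lower and none higher, against 21.2% and 14.2% of all genes tested. The median log2 fold change of the 10 genes was -1.51, against -0.08 over all genes. Between E17 and P1 none was called, where 6.31% of all genes were higher and 5.41% lower, and 1 gene, Mrc1, passed the adjusted p alone in edgeR as higher (background 15.1% higher and 14.4% lower at that rule). DESeq2 called 1 at this step, Cd163 (1.78, adjusted p = 0.013), and the unadjusted p was under 0.05 for Mrc1, Ptprc, Aif1 and Cd163. Between P1 and P5, 4 were called higher and none lower (background 4.05% and 1.79%), 8 passed the adjusted p alone as higher and none as lower (background 10.3% and 7.33%), all 10 were higher at P5 in their fitted change (49.7% of all genes were), and the median was 0.95 against 0.00 over all genes. Between P5 and P14, 1 was called higher and 1 lower (background 7.11% and 4.91%). The median of the 10 genes was then -0.57, and of the 6 that passed the adjusted p alone, 1 was higher and 5 were lower (background 15.4% and 14.2%). Between P14 and P24 none was called and none passed the adjusted p in edgeR alone (background 1.51% higher and 1.14% lower, and 2.72% each way by the adjusted p alone), although Cd68, Ptprc and Cd163 had unadjusted p of 0.0137, 0.00367 and 0.0219. DESeq2 and limma-voom called none there either. Between P24 and P60, Cx3cr1 alone was called, as lower (background 2.55% higher and 3.41% lower). Against P1, the adult nerve had 3 of the genes higher and 1 lower, with 20.3% and 15.2% of all genes called in these directions. By the adjusted p alone 6 were higher and 1 was lower, against 30.9% and 30.2% of all genes.

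**Figure D2:**
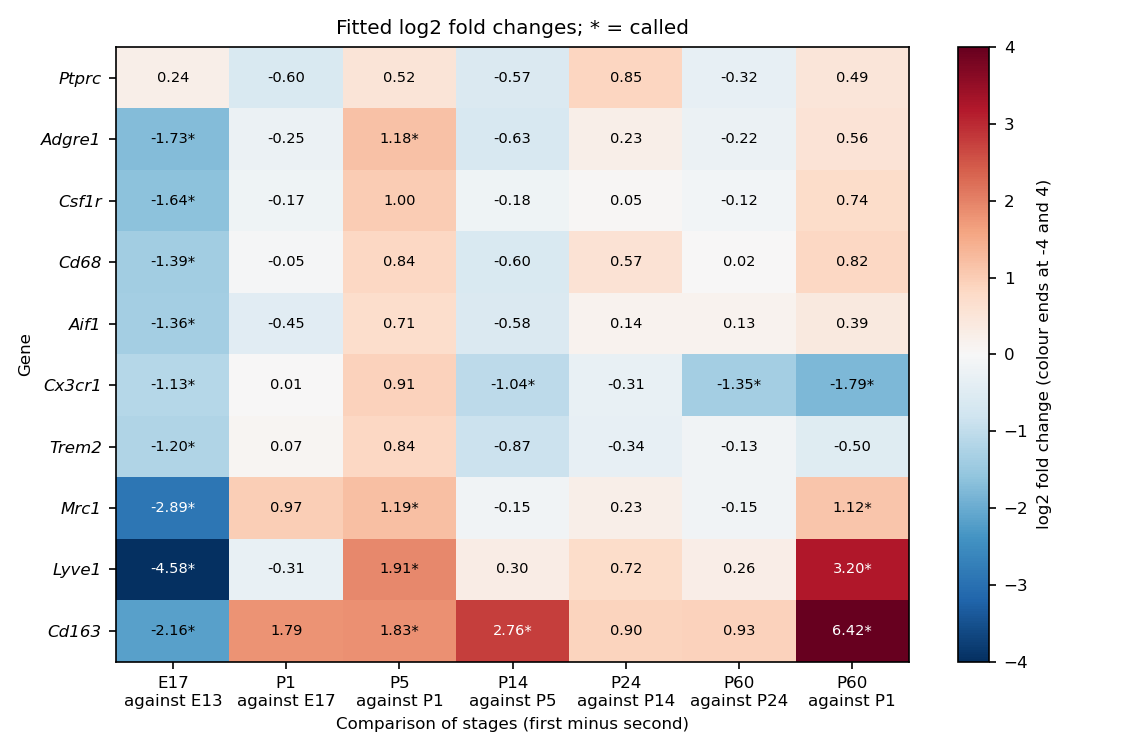
Each cell gives the fitted log2 fold change of a macrophage gene (rows) in a comparison of stages (columns, first minus second), with blue for lower and red for higher and an asterisk for a call at an adjusted p under 0.05 and a fold change of at least 2. The first column is blue for 9 genes, the P5 column is red for all 10, and the last column runs from -1.79 for Cx3cr1 to 6.42 for Cd163.

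Csf1r, the receptor on which macrophage survival depends, had the highest stage mean of the 10 genes per length of exon at each of the 7 stages. Single libraries could differ, as in E13 replicate 1, with Mrc1 at 26.15 and Csf1r at 13.78 CPM per kb. The level of Csf1r was 79.6, 172, 134 and 179 CPM at E13 and 47.7, 44.6, 42.8 and 46.2 CPM at E17. At P1 it was 36.2, 36.7, 41.9 and 46.5 CPM, and at P5 87.5, 79.2, 83.6 and 71.5 CPM. The E13 libraries lay above the E17 libraries and the P5 libraries above the P1 libraries, in both cases with no overlap. Csf1r fell by 1.64 ± 0.19 on the log2 scale between E13 and E17 (adjusted p = 2.4e-08). Its rise between P1 and P5 was 1.00 ± 0.19 (adjusted p = 0.00028), a 1.996-fold difference of means that lay just below the 2-fold minimum. From P14 on its means were 71.1, 73.5 and 67.5 CPM, and the log2 fold changes between neighbouring stages from P5 on were -0.18 to 0.05, none past the threshold. Csf1r overlaps the gene Hmgxb3 on the opposite strand by 873 bases of exon, and whether the counting used the strand is not given in the sources used here.

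The ligands of this receptor matched its direction at some steps and not at others. Il34, the ligand known from neurons and skin, was at 0.762, 1.58, 1.44 and 3.16 CPM at E13 and at 4.46 to 5.199 CPM at E17. It went on to 18.1 ± 5.2 CPM at P1, 47.3 ± 6.3 CPM at P5 and 114 ± 11.5 CPM at P14, and was 128 ± 11.7 CPM at P60. Il34 was called higher at each of the 4 steps from E13 to P14, with log2 fold changes of 1.55 ± 0.25, 1.88 ± 0.23, 1.38 ± 0.21 and 1.27 ± 0.21 (adjusted p of 7.5e-06, 2.4e-07, 2.1e-05 and 2.7e-05). Csf1, the other ligand, was at 14 to 16.7 CPM at P1 and 29.7 to 36.4 CPM at P60, a log2 fold change of 1.06 ± 0.13 (adjusted p = 4.4e-08). At E17 Il34 went up where Csf1r fell. Between P1 and P5 Il34 and Csf1r both went up while Csf1 was level (-0.07 ± 0.13, adjusted p = 0.79), and P60 against P1 gave positive changes for both ligands and the receptor (2.82 ± 0.22 for Il34). Both ligands had their highest stage mean at P60, where the mean of Csf1r was 67.5 CPM against 80.4 CPM at P5.

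Adgre1, which encodes the macrophage surface protein F4/80, had close replicates at most stages. It was at 36.6, 45.7, 44.6 and 46.2 CPM at E13, then 11.99, 12.8, 13.04 and 14.1 CPM at E17 and 12.3, 9.62, 10.1 and 11.6 CPM at P1. At P5 its 4 libraries lay between 24.1 and 25.3 CPM, all above the P1 libraries. Adgre1 fell by 1.73 ± 0.15 between E13 and E17 (adjusted p = 2.4e-10), rose by 1.18 ± 0.15 between P1 and P5 (adjusted p = 2.1e-06) and passed the adjusted p, at 0.0023, with a log2 fold change of -0.63 ± 0.15 between P5 and P14. With library size as the only scaling its P5 log2 fold change was 0.98, below the 2-fold minimum.

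Cd68, a lysosomal glycoprotein of phagocytes, and Aif1, which encodes the actin-bundling protein Iba1, had the same outline at lower levels. Cd68 was at 16.2 ± 5.22 CPM at E13, and at 6.16 ± 0.344 CPM by E17 and 5.92 ± 1.66 CPM in the P1 nerve. It then reached 10.6 ± 1.04 CPM at P5, was back at 6.98 ± 0.511 CPM at P14, and had means of 10.3 and 10.5 CPM at P24 and P60. Aif1 had 9.91 ± 1.95 CPM at E13, against 2.81 ± 0.443 CPM in the P1 and 4.62 ± 0.480 CPM in the P5 libraries. Both were called lower at E17 (log2 fold changes of -1.39 ± 0.22 and -1.36 ± 0.19, adjusted p of 3.4e-06 and 4.9e-07). At P5 their libraries lay above those of P1 without overlap, with log2 fold changes of 0.84 ± 0.21 and 0.71 ± 0.19 that passed the adjusted p (0.0058 and 0.0075) but not the 2-fold minimum. The same held in the other direction for P14 against P5 (-0.60 ± 0.21 and -0.58 ± 0.19, adjusted p of 0.034 and 0.019). Aif1 had means of 3.07, 3.37 and 3.71 CPM at P14, P24 and P60.

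Ptprc, which encodes CD45 and marks all leukocytes, behaved differently from the macrophage-restricted genes. It was at 10.6, 9.69, 5.16 and 3.16 CPM at E13 and 9.46, 9.61, 7.22 and 7.67 CPM at E17, and the libraries of both stages overlapped. The log2 fold change was 0.24 ± 0.26 (adjusted p = 0.45), and the direction turned with library size as the only scaling (-0.02). After birth its stage means stayed between 5.43 CPM at P14 and 9.76 CPM at P24. The rise between those stages had a log2 fold change of 0.85 ± 0.27 (adjusted p = 0.062). Without P14 replicate 2 this became 1.00 (adjusted p = 0.048), a call.

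The spread of the E13 values went with the GC content of most of the genes. Mrc1 and Ptprc have the lowest GC content of the 10 (43.4% and 39.4% of exon bases), and both went down from E13 replicate 1, with the most negative GC slope, to E13 replicate 4, with the most positive. Csf1r, Cd68, Aif1, Trem2 and Cx3cr1, all above 50% GC, had their lowest E13 value in replicate 1. So did Adgre1, at 47.2% GC, with 36.6 CPM against 44.6 to 46.2 CPM. Without E13 replicates 1 and 4, 8 of the 10 genes were called lower at E17. The gene lost was Cd163, with a log2 fold change of -1.21 (adjusted p = 0.28). Without P1 replicate 1, the calls of the 10 genes were the same in the comparisons with P1, and the change of Mrc1 between E17 and P1 was 0.81 (adjusted p = 0.011).

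Cx3cr1, the fractalkine receptor of resident macrophages and microglia, was the one gene called lower more than once after birth. It was at 46.9, 67.4, 50.7 and 54.8 CPM at E13 and close to 25 CPM on average at E17 and P1. At P5 it was at 50.9, 46.6, 46.6 and 46.1 CPM, and at P14 at 18.9, 20.2, 22.7 and 30.6 CPM. The P24 libraries had 16.9, 16.2, 17.9 and 23.3 CPM, and the P60 libraries 9.72, 9.14, 4.29 and 6.22 CPM. Neither P5 and P14 nor P24 and P60 overlapped, whereas P14 and P24 did. The log2 fold change was 0.91 ± 0.18 from P1 to P5 (adjusted p = 0.00076), -1.04 ± 0.19 from P5 to P14 (adjusted p = 9.2e-05), -0.31 ± 0.19 from P14 to P24 (adjusted p = 0.45) and -1.35 ± 0.20 from P24 to P60 (adjusted p = 1.6e-05). The call at P14 lay near the 2-fold minimum, with -0.95 without P14 replicate 1 and -0.98 without P14 replicate 2. Against P1 the P60 nerve had a 3.45-fold lower mean (log2 fold change of -1.79 ± 0.20, adjusted p = 1.1e-08).

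Its ligand Cx3cl1, which neurons and endothelium make, was higher at P60 than at P1, while Cx3cr1 was lower. Cx3cl1 was called lower between E13 and E17 (8.05 and 1.84 CPM, log2 fold change of -2.13 ± 0.23, adjusted p = 1.1e-08). Between P1 and P5 the means of both ligand and receptor went up, that of Cx3cl1 from 2.11 to 2.77 CPM (0.39 ± 0.23, adjusted p = 0.27). The mean of the ligand reached 6.62 CPM at P60, with a log2 fold change of 1.65 ± 0.23 against P1 (adjusted p = 5.1e-07). No step between neighbouring stages in that span was called for the ligand.

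Trem2, the lipid sensor, was at 4.27, 11.1, 8.20 and 14.6 CPM in the E13 libraries, with means of 4.15 ± 0.861 CPM at E17 and 4.33 ± 1.54 CPM at P1. At P5 it was at 7.75, 8.02, 8.64 and 6.54 CPM, above each P1 library, and at P60 at 2.78, 3.05, 2.05 and 4.33 CPM. It was called lower at E17 (log2 fold change of -1.20 ± 0.31, adjusted p = 0.0015), although the E13 and E17 libraries overlapped, and without E13 replicate 4 the value was -0.92. Its log2 fold change between P5 and P14 was -0.87 ± 0.31 (adjusted p = 0.032), under the 2-fold minimum. Tyrobp, the adaptor through which it signals, was called lower at E17 as well (30.1 and 8.24 CPM, log2 fold change of -1.87 ± 0.23, adjusted p = 1.2e-07), and its libraries at P60 were at 14.2 to 15.9 CPM. Apoe, an abundant ligand of Trem2, was called lower at P1 than at E17 (-1.33 ± 0.29, adjusted p = 0.00089) and higher at P60 than at P1 (172 and 542 CPM, 1.65 ± 0.30, adjusted p = 2.4e-05).

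Mrc1, the mannose receptor CD206, had fallen at E17 and was called higher at P5. It was at 167, 135, 94.5 and 53.3 CPM at E13 and at 17.9, 14.4, 14.04 and 14.2 CPM at E17. At P1 it was at 38.2, 26.9, 24.7 and 28.3 CPM, and at P5 at 66.7, 68.2, 73.4 and 61.8 CPM. Each of these stages lay apart from its neighbours. Mrc1 fell by 2.89 ± 0.24 between E13 and E17 (adjusted p = 6.1e-11). Its log2 fold change between E17 and P1 was 0.97 ± 0.23 (adjusted p = 0.0020), just under 2-fold, and it rose by 1.19 ± 0.23 between P1 and P5 (adjusted p = 0.00035). From P5 on its stage means lay between 60.9 and 71.3 CPM, with log2 fold changes of -0.15, 0.23 and -0.15 that did not pass the threshold. With library size as the only scaling the calls at P5 and for P60 against P1 were lost (0.99 and 0.92).

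Lyve1, the hyaluronan receptor, had the largest fall of the 10 genes between E13 and E17. Its libraries went from 54.5, 57.8, 42.5 and 38.8 CPM to 0.621 to 3.70 CPM, a log2 fold change of -4.58 ± 0.57 (adjusted p = 9.7e-08). At P1 it was at 0.911, 0.583, 4.67 and 0.403 CPM and at P5 at 5.38, 3.67, 11.98 and 3.89 CPM. Replicate 3 was the highest library at both stages and made them overlap. Lyve1 was called higher at P5 (1.91 ± 0.53, adjusted p = 0.012), but not without P1 replicate 2 (1.65, adjusted p = 0.051), without P5 replicate 3 (1.39, adjusted p = 0.090) or in a fit of these stages alone (1.92, adjusted p = 0.073). Without P1 replicate 3 the same step was larger, at 3.28 (adjusted p = 4.7e-05). Between E17 and P1 it was not called (-0.31 ± 0.57, adjusted p = 0.74), yet without P1 replicate 3 the log2 fold change was -1.67 (adjusted p = 0.020). At P14 its mean was 7.62 ± 1.65 CPM, at P24 12.6 ± 4.57 and at P60 15.1 ± 2.85. No single step in that span was called, while P60 against P1 was (3.20 ± 0.55, adjusted p = 1.3e-05), without overlap of the libraries. That change was 4.58 without P1 replicate 3 (adjusted p = 3e-08).

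Because lymphatic endothelium also makes Lyve1, the 5 genes listed for that cell type were followed beside it. Prox1, the transcription factor that defines lymphatic endothelium, was at 23.95 to 33.0 CPM at E13, 1.76 to 2.02 CPM at E17 and 0.0628 to 0.219 CPM at P60. The lymphatic chemokine gene Ccl21a was at 0 in every library, under both of its identifiers. Of the 4 listed genes that were tested, 1 rose and 1 fell between E13 and E17 (background 14.2% and 21.2%). Between P1 and P5, 1 rose (Prox1, 1.05 ± 0.33, adjusted p = 0.026, background 4.05%). Between P1 and P60, 1 rose and 1 fell (background 20.3% and 15.2%). The gene that fell over that span was Prox1 (1.46 and 0.135 CPM), and the one that rose was Flt4, the receptor VEGFR-3, at 3.07 CPM at P1 and 6.47 CPM at P60 (1.07 ± 0.29, adjusted p = 0.0022). Flt4 had also fallen between E17 and P1 (8.33 and 3.07 CPM, -1.44 ± 0.29, adjusted p = 0.00031). Mmrn1 was at 0.208 CPM at P1 and 1.48 CPM at P60, with overlapping libraries (2.80 ± 1.31, adjusted p = 0.065). Without P1 replicate 1, the calls of Prox1 at P5 (1.03, adjusted p = 0.062) and of Flt4 for P60 against P1 (0.92, adjusted p = 0.0099) were lost. The part of lymphatic endothelium in the changes of Lyve1 was not tested. Their summed level was 139 to 209 CPM at E13 and 825 to 931 CPM at P60, most of it Reln, which had a mean of 891 CPM at P60.

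Cd163, the haemoglobin-haptoglobin receptor, changed most of the 10 genes, with a range of its stage means of 8.21 on the log2 scale. It was at 1.82, 0.485, 0.361 and 0.474 CPM at E13 (9 to 55 reads) and at 0.275, 0.158, 0.116 and 0.189 CPM at E17 (3 to 5 reads). Its call at that step (-2.16 ± 0.71, adjusted p = 0.010) rested on E13 replicate 1, without which the log2 fold change was -1.27 (adjusted p = 0.15). At P1 it was at 0.547, 0.167, 1.57 and 0.248 CPM and at P5 at 2.46, 1.38, 3.81 and 1.54 CPM. The 4 libraries then lay between 14.3 and 17.9 CPM at P14 and between 16.8 and 41.8 CPM at P24. At P60 they were at 62.2, 45.4, 54.0 and 56.6 CPM, above each P24 library. Cd163 rose by 1.83 ± 0.48 between P1 and P5 (adjusted p = 0.0074) and by 2.76 ± 0.41 between P5 and P14 (adjusted p = 7.8e-06). The next steps were 0.90 ± 0.37 (adjusted p = 0.19) and 0.93 ± 0.36 (adjusted p = 0.084) and were not called. Between P1 and P60 the means differed 86.3-fold (6.42 ± 0.49, adjusted p = 8.5e-12). The P1 mean rested on replicate 3, without which the log2 fold change was 2.78 for P5 against P1 (adjusted p = 0.00031) and 7.39 for P60 against P1 (adjusted p = 2.9e-12). The step from E17 to P1 was not called (1.79 ± 0.73, adjusted p = 0.067). It was 0.84 without P1 replicate 3 (adjusted p = 0.45), and it was called without P1 replicate 2 or 4 (2.08 in both, adjusted p = 0.032 and 0.036) and by DESeq2 (1.78, adjusted p = 0.013).

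Hp, whose product carries the haemoglobin that Cd163 takes up, was also higher at P60 than at P1 (6.57 ± 0.69, adjusted p = 4.6e-09). It was at 0.807 CPM at P5, 3.42 CPM at P14 and 7.37 CPM at P24, with 1.73 to 11.7 CPM among the P24 libraries, and at 26.9 to 46.5 CPM at P60. Hp was called higher between P5 and P14 (2.11 ± 0.61, adjusted p = 0.010), with overlapping libraries, and between P24 and P60 (2.31 ± 0.53, adjusted p = 0.0029). Its step from P1 to P5 was not called (1.04 ± 0.73, adjusted p = 0.38). The erythroid genes, which report the blood in unperfused nerve, were lower at P60 than at P1 for 4 of 8 (5 without P1 replicate 1), with none higher. Of all genes, 15.2% were lower and 20.3% higher there.

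Cd163 and Lyve1 were set beside genes of the nerve sheaths, and within stages both tended to go with the epineurial ones. Of 8 listed genes of perineurium and epineurium, 4 were called higher between E13 and E17 (background 14.2%), where Lyve1 and Cd163 fell. Between E17 and P1, 2 were called lower (background 5.41%). Then 1 was called higher between P1 and P5 (Clec3b, or Ly6c1 in its place without P1 replicate 1), 7 between P5 and P14, none at the next steps and all 8 between P1 and P60. Of all genes, 4.05% were called higher between P1 and P5, 7.11% between P5 and P14 and 20.3% between P1 and P60. Lyve1 was called at P5, where 1 sheath gene was, and not at P14 (0.30 ± 0.49, adjusted p = 0.70), where 7 were. These counts depend on the call rule. At P5 the log2 fold changes of Clec3b, Pi16, Pcolce2, Ly6c1 and Dpp4 were 1.96, 1.29, 1.11, 0.93 and 0.44. Those of Slc2a1, Itgb4 and Cldn1 were 0.51, 0.20 and -0.63. The summed level of the 8 sheath genes was 192 to 253 CPM at P5, 534 to 633 CPM at P14 and 1117 to 1553 CPM at P60, and none of the 8 was at 0 at any stage. Most of it was Itgb4, with means of 130, 326 and 814 CPM at these stages. The study also describes Slc2a1 in a cluster of endothelial cells at P60. The list was then split, with the values known, into 3 perineurial genes (Slc2a1, Itgb4, Cldn1) and 5 epineurial ones (Pcolce2, Ly6c1, Pi16, Dpp4, Clec3b). Ly6c1 was the most abundant of the 5 at P14, P24 and P60, with means of 44.4, 69.7 and 104 CPM. The 5 epineurial genes summed to 6.25 to 21.4 CPM at P1 and to 22.6, 21.6, 34.6 and 18.8 CPM at P5. Replicate 3, the highest library for Lyve1 and Cd163 at both stages, was also the highest for this sum. P24 replicate 2, the lowest P24 library for Lyve1 (5.75 CPM) and Cd163 (16.8 CPM), had the lowest sum there (82.2 CPM against 147 to 186 CPM). The same libraries were extreme for the 3 perineurial genes, with the highest sums at P1 and P5 in replicate 3 (226 and 218 CPM) and the lowest at P24 in replicate 2 (518 CPM against 760 to 785 CPM). P24 replicate 2 was also the lowest P24 library for Csf1r (48.9 CPM against 80.6 to 83.6 CPM) and Adgre1 (11.1 CPM against 19.1 to 22.7 CPM).

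**Figure D3:**
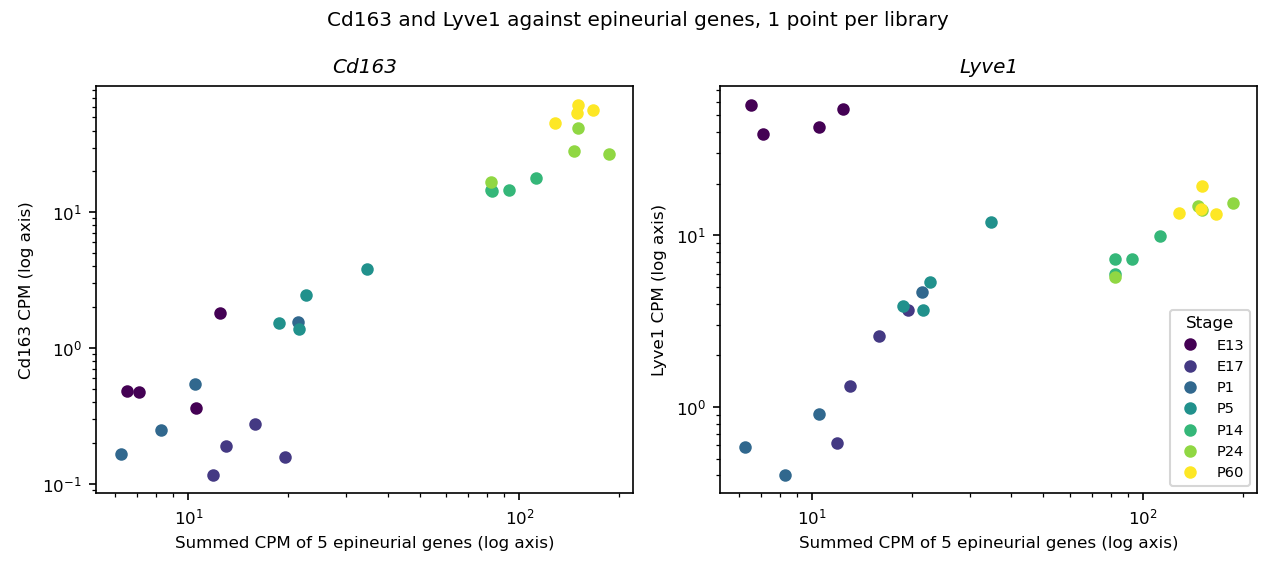
The horizontal log axes give the summed CPM of 5 epineurial genes and the vertical log axes the CPM of Cd163 (left) and Lyve1 (right), with 1 point per library coloured by stage. From E17 on, libraries of the same stage with a higher sum tend to have more Lyve1 and Cd163, and the E13 libraries lie apart with 38.8 to 57.8 CPM of Lyve1 at a sum of 6.54 to 12.4 CPM.

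With each stage centred on its own mean, the 24 libraries from E17 on gave a correlation of 0.90 between Lyve1 and the epineurial sum and of 0.86 between Cd163 and that sum. For the other 8 genes the value ran from -0.23 for Ptprc to 0.42 for Aif1, with 0.18 for Mrc1 and 0.38 for Csf1r. The sum of the 3 perineurial genes gave another order, with 0.55 for Csf1r, 0.49 for Trem2, 0.47 for Adgre1, 0.36 for Cd163 and 0.32 for Lyve1, and lower values down to -0.17 for the other 5. Lyve1 and Cd163 correlated with each other at 0.84 on the same scale, the highest of the 45 pairs of macrophage genes. These values describe 24 libraries that share a dissection, a scaling and 6 stages, and the part of sheath tissue left on the nerve in the rises of Cd163 and Lyve1 was not tested.

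Ratios within a library do not depend on the scaling between libraries. After division by exon length, Cd163 stood to Csf1r as 0.00403 at E17, 0.0263 at P5, 0.230 at P14 and 0.854 at P60 (medians of 4 libraries). At P60 the ratio ran from 0.707 to 1.04, so that the adult nerve held about as much Cd163 as Csf1r transcript per length. The ratio of Cx3cr1 to Csf1r went the other way, with 0.715 to 0.826 at P5, 0.341 to 0.487 at P14 and 0.100 to 0.173 at P60, none of which overlapped. Trem2 over Csf1r had medians of 0.113 at P5 and 0.0480 at P60, again without overlap. Mrc1 over Csf1r was 0.279 to 0.340 at E17 and 0.534 to 0.956 at P1, and from P5 on its medians were 0.769 to 0.887. Adgre1 over Csf1r kept medians between 0.402 and 0.539 at each of the 7 stages. Aif1 over Csf1r had its highest median at E17 (0.324) and its lowest at P14 (0.161).

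**Figure D4:**
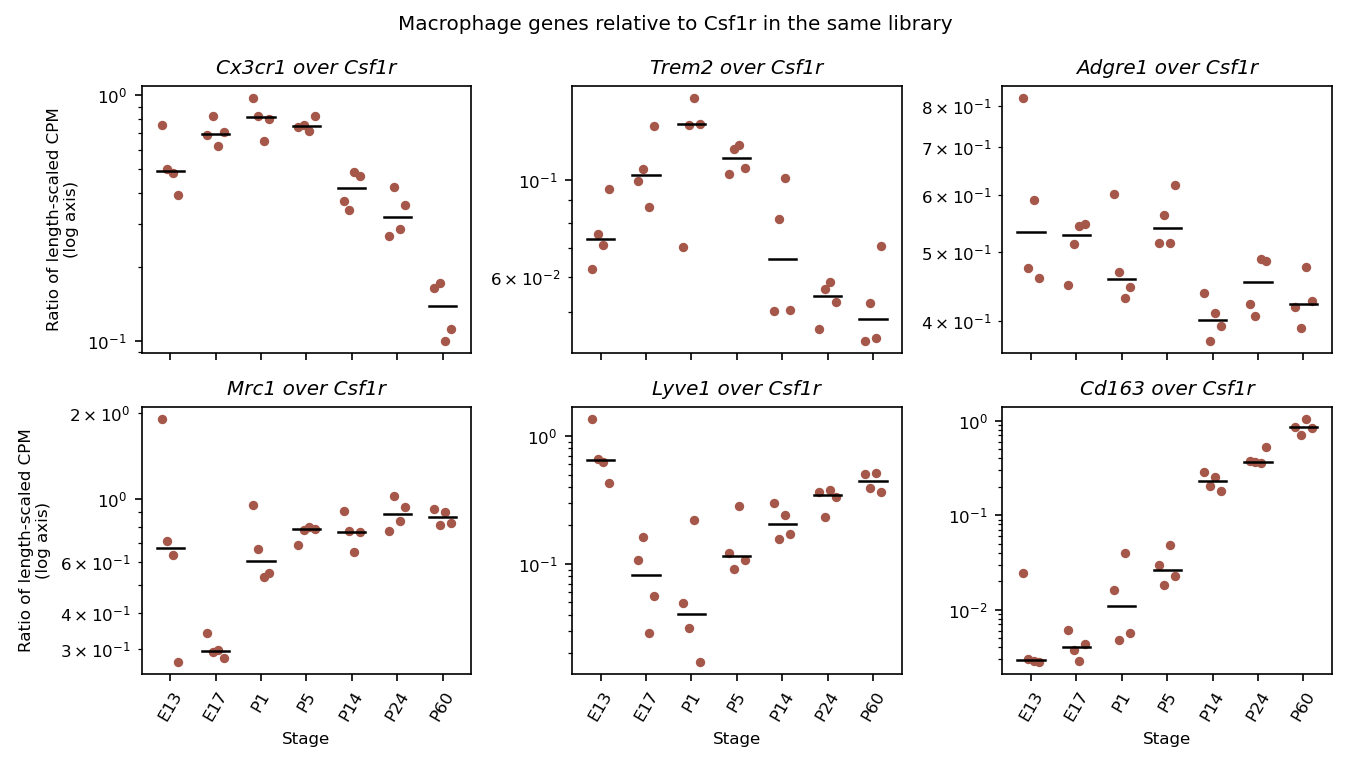
The vertical log axes give the ratio of length-scaled CPM of 6 macrophage genes to Csf1r in the same library, by stage, with 1 point per library and a bar at the median. Cd163 over Csf1r climbed to 0.707 to 1.04 at P60, Cx3cr1 over Csf1r dropped to 0.100 to 0.173, and Adgre1 over Csf1r had medians between 0.402 and 0.539.

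The order of the genes per kilobase of exon shows the same shift. At P1 it was Csf1r (6.98 CPM per kb), Cx3cr1 (5.63), Cd68 (4.71), Mrc1 (4.64) and Adgre1 (3.37), followed by Aif1, Trem2, Lyve1, Ptprc and Cd163 (0.116), and Csf1r and Cx3cr1 overlapped in range at that stage. At P60 Csf1r (11.7 CPM per kb), Mrc1 (10.1) and Cd163 (9.99) led with overlapping ranges, followed by Cd68 (8.34, whose range overlapped theirs), Lyve1 (5.16) and Adgre1 (4.97). Cx3cr1 stood at 1.63 ± 0.566 CPM per kb, near Aif1 at 2.42 ± 0.399 CPM per kb. Ptprc, whose annotated transcripts cover 18313 exon bases together, came last.

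Among 22 other macrophage genes, 16 were called lower at E17 than at E13 and none higher (background 21.2% and 14.2%). They included the lysozyme gene Lyz2 (70.4 and 32.3 CPM, -1.12 ± 0.16, adjusted p = 1.0e-06) and the complement genes C1qa, C1qb and C1qc, with log2 fold changes of -1.54 to -1.88. For C1qa and C1qb the stages overlapped, with C1qa at 10.5 CPM in E13 replicate 1, 28.8 to 51.9 CPM in the other E13 libraries and at most 11.5 CPM in the E17 libraries, of which 3 were above E13 replicate 1. Without E13 replicates 1 and 4 the same 16 genes were called, with C1qa at -1.56, C1qb at -1.61 and C1qc at -1.86. Between E17 and P1, 2 were higher and none lower, where 6.31% and 5.41% of all genes were. They were the transcription factor Maf (1.99 ± 0.15, adjusted p = 4.6e-11) and the chemokine Pf4 (1.77 ± 0.32, adjusted p = 0.00010). Between P1 and P5, 2 were higher (background 4.05%), Lyz2 (1.41 ± 0.16, adjusted p = 3.7e-07) and Pf4 (1.65 ± 0.28, adjusted p = 8.3e-05), with a list median of 0.79. Without P1 replicate 1, Lyz2 was called lower between E17 and P1 as well (-1.03, adjusted p = 0.00011), where it was at -0.97 with all libraries, and Cd53 was called higher at P5. Between P5 and P14, 3 were lower and 1 higher (background 4.91% and 7.11%). Mpeg1, which encodes a pore-forming protein of phagocytes, went from 36.7, 38.6, 33.0 and 42.4 CPM to 11.2, 12.8, 11.8 and 15 CPM (-1.57 ± 0.17, adjusted p = 7.0e-08). The cathepsin gene Ctss fell with it (25.8 and 12.9 CPM, -1.0 ± 0.16, adjusted p = 1.8e-05), as did Ms4a7, and Cd14 rose. Lyz2 was the one gene called between P14 and P24 (1.48 ± 0.16, adjusted p = 9.7e-07), and the engulfment receptor Mertk the one between P24 and P60 (50.2 and 127 CPM, 1.34 ± 0.17, adjusted p = 2.1e-06). Of all genes, 1.51% and 2.55% were called higher at these steps. At P60, 10 of the 22 were higher than at P1 and none lower (background 20.3% and 15.2%), with a median of 0.93 against -0.02 over all genes.

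Genes of perivascular and connective tissue macrophages were called at the steps at which Cd163 rose. Of 10 such genes, 7 were lower at E17, none was called at P1, 6 were higher at P5, 6 higher at P14, 2 higher at P24, 1 higher at P60 against P24, and 9 higher at P60 against P1. No gene of the list was called lower after E17. Of all genes, 21.2% were lower at E17. Higher were 4.05% at P5, 7.11% at P14, 1.51% at P24, 2.55% at P60 against P24 and 20.3% at P60 against P1. Cbr2, a carbonyl reductase, went from 0.0365, 0.125, 0.219 and 0.372 CPM at P1 to 1.29 to 2.17 CPM at P5 and 12.3 to 15.1 CPM at P14 (3.13 ± 0.34 and 2.91 ± 0.25, adjusted p of 1.5e-07 and 1.1e-09). The folate receptor gene Folr2 rose at the same steps (2.66 ± 0.56 and 1.58 ± 0.45, adjusted p of 0.0011 and 0.0082), as did the lectin Clec10a (2.06 ± 0.49 and 1.27 ± 0.40, adjusted p of 0.0032 and 0.018). Stab1, a scavenger receptor, rose at P5 (33.2 and 90.3 CPM, 1.44 ± 0.25, adjusted p = 0.00016) and had a mean of 67.2 CPM at P14. Retnla, a gene of alternatively activated macrophages, had 0.0834 CPM or less in each library up to P5 and 3.27 to 9.41 CPM at P14.

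The 5 genes of antigen presentation by MHC class II took a course of their own. At E13 they summed to 2.25 to 6.26 CPM and at E17 to 18.7 to 22.4 CPM. Of the 5, 4 were called higher at E17 (background 14.2%), at the step where 9 macrophage genes fell. None was called at the 3 steps from E17 to P14, although H2-Ab1, H2-Aa and Cd74 passed the adjusted p at P5 (0.045, 0.0097 and 0.0049) and H2-Eb1 at P14 (0.025). The sum was 46.1 to 55.9 CPM at P14, above each E17 library. Then 4 of 5 rose between P14 and P24 and 4 of 5 between P24 and P60 (background 1.51% and 2.55%), where Csf1r and Adgre1 were not called. Cd74, the invariant chain, had means of 20.1, 59.8 and 131 CPM at P14, P24 and P60 (1.57 ± 0.22 and 1.14 ± 0.22, adjusted p of 3.4e-05 and 0.00041). H2-Aa went from 10.6 to 13.2 CPM at P14 through 28.1 to 43.1 CPM at P24 to 70.2 to 112 CPM at P60 (1.51 ± 0.19 and 1.49 ± 0.19, adjusted p of 1.0e-05 and 2.2e-06).

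**Figure D5:**
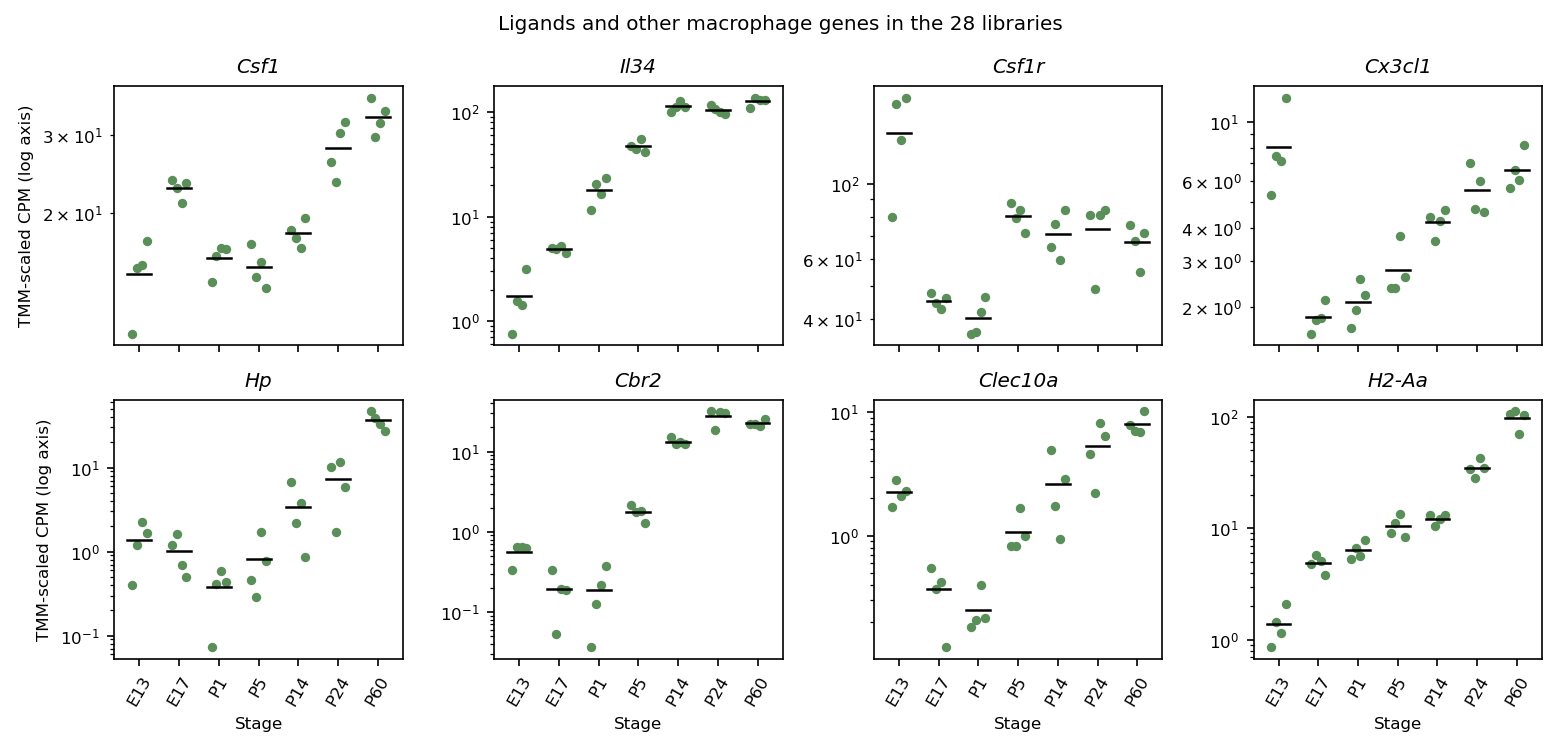
The vertical log axes give TMM-scaled CPM by stage of 2 ligands with their receptor Csf1r, the ligand Cx3cl1, Hp, 2 connective tissue macrophage genes and an MHC class II gene, chosen with the values known, with 1 point per library and a bar at the mean. Il34 climbed from 0.762 to 3.16 CPM at E13 to 101 to 129 CPM at P14, and H2-Aa reached 70.2 to 112 CPM at P60.

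Some genes best known from microglia were read in the nerve as well. Of 8 listed, 4 fell and 1 rose between E13 and E17 (background 21.2% and 14.2%). Then 1 rose at P1 and 2 at P5 (background 6.31% and 4.05%), and none was called at the 3 later steps. At P60, 1 was higher and 1 lower than at P1 (background 20.3% and 15.2%). Fcrls fell at E17 (57.9 and 13.2 CPM, -2.13 ± 0.18, adjusted p = 4.9e-11) and rose at P5 (15.04 and 34.7 CPM, 1.21 ± 0.17, adjusted p = 7.8e-06). Its stage means went down from there, and at P60 it stood below P1 in its mean (-0.21 ± 0.17, adjusted p = 0.30), where Csf1r stood above it (0.74 ± 0.19, adjusted p = 0.0011). P2ry12, a purinergic receptor, rose at E17 (5.88 and 18.3 CPM, 1.62 ± 0.24, adjusted p = 1.9e-06) and was lower at P60 than at P1 (18.6 and 8.55 CPM, -1.12 ± 0.24, adjusted p = 0.00023). Siglech, a lectin of the Siglec family, was the gene called higher in that comparison (0.148 and 2.62 CPM, 4.06 ± 0.53, adjusted p = 2e-07), so that the calls of the list went both ways. Gpr34, a receptor for lysophosphatidylserine, was the gene that rose at P1 (1.10 and 2.70 CPM, 1.29 ± 0.23, adjusted p = 9e-05), and it rose again at P5 (6.03 CPM, 1.16 ± 0.21, adjusted p = 0.00019). Sall1, which defines microglia but is also made in other embryonic tissue, was at 22.7 to 32.4 CPM at E13 and at most 0.677 CPM in each later library. Without E13 replicates 1 and 4, Tmem119 was called lower at E17 as well (-1.16, adjusted p = 0.010).

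Other blood and immune cells were followed by their own markers. The 8 neutrophil genes summed to 35.5 to 89.4 CPM at E13 and 1.48 to 3.83 CPM at E17. All 6 that were tested fell at that step (background 21.2%), beside the macrophage genes. At P24 the sum ran from 0.263 to 13.6 CPM, and at P60 from 0.146 to 0.377 CPM, where 4 of the 8 were at 0 in each library. Ccr2, a receptor of monocytes, rose at E17 (2.56 and 15.7 CPM, 2.59 ± 0.28, adjusted p = 7.2e-09) and fell at P1 (4.54 CPM, -1.78 ± 0.27, adjusted p = 8.0e-06), opposite to most of the 10 genes at the first step. Of the 3 tested monocyte genes, 2 were higher at P60 than at P1 and none lower. These were Ccr2 (1.49 ± 0.27, adjusted p = 2.3e-05) and Plac8 (1.40 ± 0.43, adjusted p = 0.0059). The 7 T cell genes summed to 4.21 to 9.84 CPM at E13 and to at most 2.20 CPM in each library from E17 on. The 5 B cell genes summed to 4.85 to 7.47 CPM at E13 and to at most 3.56 CPM from E17 on. Both lists fell beside the macrophage genes at E17, with 2 of 2 tested T cell genes and 2 of 3 tested B cell genes called lower. Single genes held most of these sums at E13, with Lck at 5.996 of the T cell mean of 6.69 CPM. Pax5 was at 3.81 of the B cell mean of 6.175 CPM, while the B cell gene Cd79a was level (0.269 CPM at E13 and 0.268 CPM at E17). The 8 mast cell genes summed to 0.854 to 92.6 CPM at E17. The 5 that were tested were called higher at P60 than at P1 (background 20.3%), or 3 of them without P1 replicate 1. The 6 dendritic cell genes summed to 15.2 to 33.5 CPM over all libraries, and at most 1 of the 5 tested was called in any comparison. Most of that sum was Zbtb46, with stage means of 13.7 to 26.4 CPM, while no other gene of the list had a stage mean above 2.13 CPM. Zbtb46, at -0.95 between E13 and E17, was called lower there without E13 replicates 1 and 4 (-1.05, adjusted p = 2.3e-09). The part of these cells in the changes of the 10 genes, some of which they share, was not tested.

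The genes most like the mean of the 10 macrophage genes over the 28 libraries were sought among 10007 protein-coding genes whose mean reached 10 CPM. They were Prkag2 (correlation of 0.92), D430019H16Rik (0.90), Atp6v0a1 (0.89), Mycl, Tnfrsf19 and Tpm1 (0.88), Lmo2 and Pclo (0.87), and Rtn1 and Skap2 (0.86), none of which was in a macrophage list. Over the 24 libraries from E17 on, a choice made with the values known, the complement genes C1qb and C1qa led with 0.93, followed by Acta2 (0.93), Prkag2 (0.92), Klf16 and Lpl (0.91). Within the 10 genes, the mean was closest to Lyve1 (0.93), Mrc1 (0.90) and Csf1r (0.88) and far from Cx3cr1 (0.13) and Ptprc (0.17). Cx3cr1 and Cd163 correlated at -0.60 over the 24 libraries from E17 on and at -0.01 once each stage was centred on its own mean, so that the opposition lay between stages and not among libraries of a stage.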

How the data were processed

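For 28 libraries the authors deposited raw counts of reads for each gene, without normalization. The authors prepared stranded poly-A libraries, sequenced single-end reads, trimmed them, aligned them with STAR 2.6.1c (submitters' processing notes, build GRCm38.p5) and counted reads per gene with featureCounts. Strand and multimapping settings are not given in the sources used here. Of 41605 identifiers, 41519 matched GENCODE M21 (GRCm38), which gave symbols, GC content and exon lengths. TMM scaling, filterByExpr and glmQLFit (robust) of edgeR 4.0.16 in R 4.3.3 were applied to all 28 libraries with stage as the only term, 7 comparisons and a test of all stages, and the SE is the log2 fold change over the square root of F. DESeq2 1.42.0, limma-voom (limma 3.58.1) and other scalings, filters, sample sets and call rules were alternatives. The test was tested on simulated data. The members, lists and tests were chosen with earlier results of these data known.

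Named genes were all 10 members, up to 4 called genes per list and comparison with the highest mean CPM, and the 10 most similar genes. Genes outside this rule were named after their values were seen, among them Csf1, Cx3cl1 and Tyrobp at P60, Ccl21a, Hp between P5 and P24 and the epineurial genes. Samples of a stage came from different animals or embryo pools. Replicates differed by more than sampling noise (chi-square over its degrees of freedom of 5.45 to 317 across 42 pairs). Sex was not used, since no library's label gives it. Same-numbered samples of different stages correlated with a median of 0.08 over 84 pairs (-0.20 to 0.57), so the numbers did not pair them. Genes with up to 3 counts in every library of a stage got no fold change here.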

Additional observations from a re-analysis of the deposited data

Results flagged for a closer look

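In 10 of the 70 groups of 4 libraries (10 genes at 7 stages), 1 library lay far from the other 3, with a gap to its nearest neighbour above Dixon's 95% limit for 4 values. Chance marks about 1 in 20 groups. At E13, replicate 1 was low in Adgre1 (36.6 CPM against 44.6 to 46.2) and high in Cd163 (1.82 CPM against 0.361 to 0.485), and it is the library with the steepest GC slope. Mrc1 was highest in E17 replicate 1, with 17.9 CPM against 14.04 to 14.37. Lyve1 was highest in P1 replicate 3, with 4.67 CPM against 0.403 to 0.911. That library also had the highest Cd163 and the highest epineurial sum of the P1 libraries. Cx3cr1 was highest in P5 replicate 1, with 50.9 CPM against 46.1 to 46.6. Cd163 was highest in P14 replicate 1, with 17.9 CPM against 14.3 to 14.6, and its epineurial sum of 112 CPM was the highest at P14. At P24, replicate 2 was low in Csf1r (48.9 CPM against 80.6 to 83.6) and in Lyve1 (5.75 CPM against 14.1 to 15.5), and Aif1 was high in replicate 4 (4.55 CPM against 2.92 to 3.01). Lyve1 was highest in P60 replicate 1, with 19.3 CPM against 13.3 to 14.2. The epineurial sum of that library was 151 CPM, below the 167 CPM of P60 replicate 4, which had the lowest Lyve1 at that stage. The cause of these values was not tested.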

How the results depend on the processing

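Of the 20 calls of single macrophage genes in the 7 comparisons, 13 held under each alternative and left-out library, 7 were lost at least once, as given beside their values, and none turned direction. With library size as the only scaling, the median change over all genes was -0.33, -0.11, -0.19, -0.17, 0.05 and 0.10 at the 6 steps in order of age and -0.22 for P60 against P1, against -0.08 to 0.00 with TMM. The count of macrophage genes called between E17 and P1 was 0, and 1 without a filter on low counts, with DESeq2 and with no fold minimum (Mrc1, Cd163 and Mrc1), and 1 without P1 replicates 1 and 3, an alternative chosen after seeing the data (Lyve1). Between P1 and P5 the count of macrophage genes was 4, and 2 with library size only. With no fold minimum it was 8 between P1 and P5 (all higher, background 10.3%), 6 between P5 and P14 (1 higher and 5 lower, background 15.4% and 14.2%), and 7 between P1 and P60 (6 higher and 1 lower, background 30.9% and 30.2%). Leaving out 1 library at a time gave 0 to 2 macrophage genes called between E17 and P1 (2 without P1 replicate 2 or P1 replicate 3, 1 without E17 replicate 1 or P1 replicate 4), 3 to 6 between P1 and P5, 1 to 2 between P5 and P14 (1 without P14 replicate 1 or P14 replicate 2), 0 to 1 between P14 and P24 (1 without P14 replicate 2), 1 between P24 and P60, 4 to 5 between P1 and P60 and 8 to 9 between E13 and E17. Over all genes tested the calls in the same comparisons, in the same order, numbered 1895 to 2104, 868 to 1020, 1945 to 2104, 369 to 508, 899 to 1044, 6157 to 6342 and 6051 to 7037. The replicate number as a block gave 5 macrophage genes called between P1 and P5, where Csf1r, at 1.01, passed the 2-fold minimum, and changed no other call, and the numbers did not pair the samples.

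The directions that turned were all of changes that were not called. For P1 against E17, Cx3cr1 was at -0.02 with DESeq2 size factors, with the DESeq2 test and with limma-voom and at -0.11 with library size only, Trem2 was at -0.05 with library size only, and Cd68 was at 0.02 with limma-voom and at 0.23 without P1 replicates 1 and 3. Ptprc at E17 against E13 was at -0.02 with library size only, and Cd68 at P60 against P24 was at -0.14 with limma-voom. With 1 library left out, the log2 fold changes that turned ran from -0.00 to 0.49 for Ptprc (E17 against E13), from -0.24 to 0.06 for Cd68, -1.67 to 0.15 for Lyve1, -0.06 to 0.10 for Cx3cr1 and -0.07 to 0.28 for Trem2 (P1 against E17), from -0.03 to 0.20 for Csf1r and -0.05 to 0.20 for Aif1 (P24 against P14), and from -0.10 to 0.14 for Cd68 and -0.35 to 0.02 for Trem2 (P60 against P24). The cause of these differences was not tested. Depth limits Cd163 at E13, E17 and P1 and Lyve1 at E17 and P1, where single libraries held as few as 9, 3, 4, 16 and 13 reads.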
